A study of Mus musculus with 8 samples.

Results

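The 78 genes described here carry the symbols of mitochondrial ribosome (mitoribosome) proteins, and their transcripts were measured by RNA-Seq in mouse brown adipose tissue (BAT). They are the rows of the expression table whose symbol begins with Mrpl or Mrps followed by a number, on an autosome and without pseudogenes, and they were 78 of 49452 genes in all. Symbols and positions, not measured values, define this set, which was proposed when earlier results of these data were known. Of the 78, 49 carry an Mrpl and 29 an Mrps symbol, and all 78 are protein-coding in the GENCODE M21 annotation. The table came from BAT of 8 male C57BL/6 mice in 4 groups of 2. At an age of 10 to 12 weeks, 1 pair of mice had been housed at 22 °C and 1 pair exposed to 4 °C for 24 h. A further pair had been fed a control diet (CD, called normal chow in the sample labels) and 1 pair a high-fat diet (HFD), each for 28 weeks until dissection at 32 weeks of age, and these mice came from Charles River. The 4 °C mice were fasted at the end of the exposure, and the study's methods do not make clear whether the 22 °C mice were fasted as well. No genetic modification is given for any group, and total RNA was depleted of ribosomal RNA before directional libraries were made. The study asked which transcripts follow BAT activity in the cold and on a high-fat diet. The labels number the replicates without stating more than separate samples, so that p-values rest on variation between these samples. That variation was pooled over genes, as described under the processing.

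The mitoribosome translates the few proteins encoded by mitochondrial DNA, all of them subunits of the respiratory chain and the ATP synthase. Its ribosomal RNAs are transcribed inside the organelle, whereas its proteins are encoded in the nucleus, translated in the cytosol and imported. The large subunit forms peptide bonds and the small subunit reads the mRNA. Some of the proteins have a counterpart in bacterial ribosomes and others are specific to mitochondria. Brown adipocytes are packed with mitochondria and burn fuel for heat through the uncoupling protein Ucp1, and their mitochondrial content is known to follow thermogenic demand. By textbook assignment, 51 of the 78 genes encode proteins of the large and 26 of the small subunit. Mrps18a and Mrps30 belong to the large subunit despite their symbols. Mrps36 was placed in neither subunit, since its product is now known as a component of the 2-oxoglutarate dehydrogenase complex. It is still counted among the 78 mitoribosomal genes throughout. A bacterial counterpart is known for 44 of the proteins, 31 are specific to mitochondria and 3 were not assigned.

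The libraries differed in ways that their groups do not explain. The table gives FPKM, which counts fragments relative to the length of the transcript and to all mapped fragments of a library. RNAs other than mRNA and lncRNA took 6.38% and 33.4% of the autosomal FPKM in the 22 °C libraries (replicates 4 and 7) and 36.9% and 4.06% in the 4 °C libraries (replicates 2 and 11). They took 32.8% to 43.2% in the CD and HFD libraries. Transcripts of the satellite-like gene Gm10800 were above 100 FPKM in 1 library of every group, here called satellite-high, and at most 4.13 FPKM in the other 4, here called satellite-low. The satellite-high libraries were replicate 4 at 22 °C, replicate 11 at 4 °C, replicate 8 on CD and replicate 2 on HFD. All levels below were rescaled so that the autosomal FPKM of every library had the same sum (rescaled FPKM). Counts and overlaps of groups are also given on a scale set by autosomal mRNA and lncRNA alone (mRNA scale). The labels also give the CD, replicate 6 library a name of the same form as the 22 °C and 4 °C libraries, whereas the other CD library and both HFD libraries have names of another form. What the forms stand for is not stated, and the methods describe sequencing in parallel. X- and Y-chromosomal genes were listed at 0 in 3 libraries and were left out. The 10 genes listed here as brown adipocyte markers were all above 0 in all 8 libraries, which is no check of identity, since muscle and macrophage markers were too. Among the 10, the study counts Adipoq, Fabp4 and Pparg as markers common to adipose tissues. Ucp1 lay between 1113 and 7284 rescaled FPKM, and Cidea, a lipid droplet protein of brown adipocytes, between 306.7 and 941.1.

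All 78 genes were expressed at 1 rescaled FPKM or more in all 8 libraries, and all 78 passed the filter for testing in both comparisons. FPKM is a value per length and allows genes to be compared. Mean levels over the 8 libraries spanned 5.44 (Mrpl57) to 134.9 rescaled FPKM (Mrpl30) with a median of 26.1, and 42 of the 78 genes lay between 20 and 50. The 5 genes with the highest means were Mrpl30 (134.9), Mrps21 (127.0), Mrpl42 (105.7), Mrpl51 (83.5) and Mrpl34 (83.2), and together they gave 20.9% of the summed level. The 5 lowest were Mrpl57 (5.44), Mrpl11 (8), Mrpl1 (8.88), Mrps10 (8.96) and Mrpl19 (9.23). The highest member was therefore 20.6 to 35.9 times as high as the lowest within a single library, although every assembled subunit holds its proteins in fixed proportions. Large- and small-subunit genes had similar medians, at 26.7 and 25 rescaled FPKM. Genes with a bacterial counterpart had a median of 27.9 and mitochondria-specific genes one of 21.2. By the step between the lowest values of single-exon genes, the least covered member of a library rested on roughly 604.0 to 1489 fragments, so that counting error was small beside the differences between libraries. These fragment numbers take the longest annotated transcript as the length and are approximate.

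**Figure D1:**
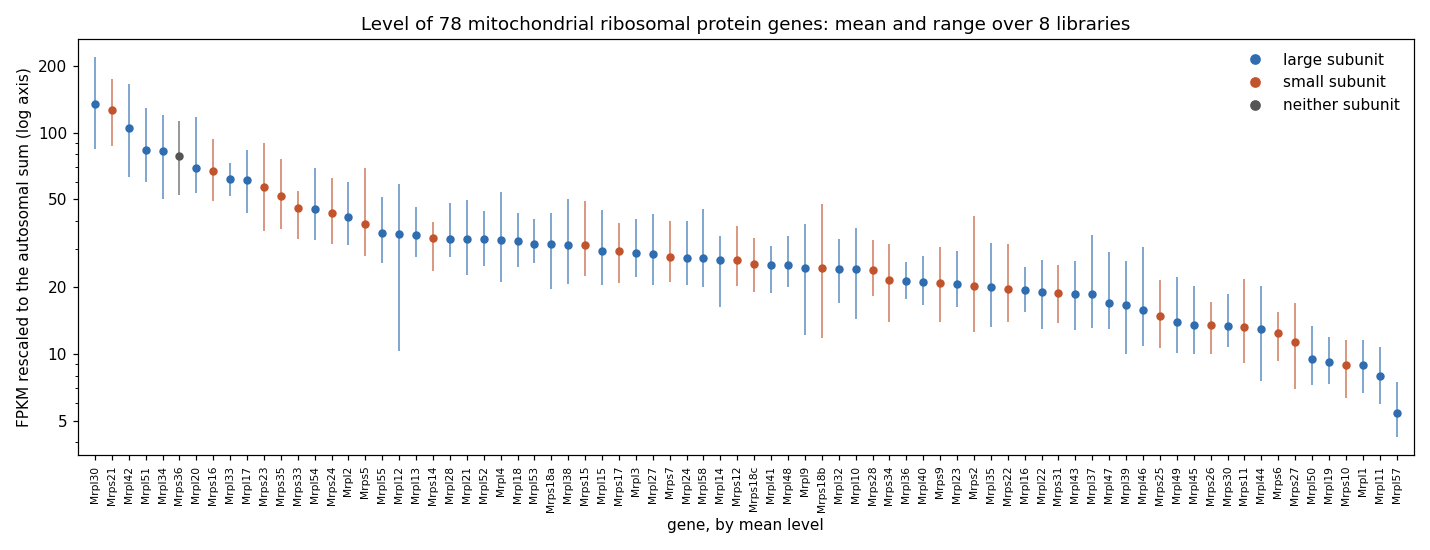
Mean level of each of the 78 genes (points, rescaled FPKM on a log axis) with the range over the 8 libraries (lines), ordered by mean and coloured by ribosomal subunit. Most genes sit near the median of 26.1 and the range of a single gene rarely exceeds a few-fold, with Mrpl12 and Mrps18b among the widest.

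Levels of members that occupy known sites differed from one another. Mrpl12 is the mobile stalk protein that recruits translation factors and has been reported to bind the mitochondrial RNA polymerase, and it averaged 34.9 rescaled FPKM. Its stalk partners Mrpl10 and Mrpl11 averaged 24.2 and 8 rescaled FPKM. Mrps12, which lines the decoding centre, averaged 26.6. Mrpl45, near the exit of the peptide tunnel at the inner membrane, averaged 13.6 and Mrpl44, a protein with a ribonuclease III fold, 13. Mrpl58, a peptidyl-tRNA hydrolase built into the large subunit, averaged 27.2. The 3 paralogues Mrps18a, Mrps18b and Mrps18c, related to bacterial protein S18, averaged 31.5, 24.4 and 25.6, so that their means were closer than the spread of Mrps18b over the libraries (11.9 to 47.1). Mrps36 was in the top 6 with a mean of 78.8.

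Sequences upstream of the genes were examined because mitochondrial protein genes are known targets of NRF-1, of ETS-family factors (which include NRF-2) and of YY1. RefSeq promoter windows (build GRCm38.p6, 250 bases before to 50 after the start) were found for 69 of the 78 genes in 75 windows. Both strands were searched for GCGCATGCG (NRF-1), CCGGAAG (ETS) and AAGATGGCG (YY1), and none of these strings contains another. The NRF-1 string was in 7 of 75 windows (9.33%), against 1.75% of all 32851 windows. The ETS string was in 26 (34.7%, against 8.86% of all windows) and the YY1 string in 8 (10.7%, against 1.4%). At least 1 of the 3 strings was in 36 of 75 windows (48%), compared with 11.4% of all windows. The YY1 string began 11 to 36 bases after the start in Mrps18a, Mrps27, Mrpl42 and Mrps24, and upstream of it in Mrps11. A match describes letters in a window and not binding. Stretches around the match are shown for the 7 genes with the NRF-1 string and for 5 genes with the YY1 string that are described with values here, 5′ to 3′ on the gene's strand, with the matched letters on either strand in capitals.
Mrpl10, chr11:97041416-97041485, plus strand: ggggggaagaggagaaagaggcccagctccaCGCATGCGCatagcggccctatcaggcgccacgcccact
Mrpl17, chr7:105811079-105811148, minus strand: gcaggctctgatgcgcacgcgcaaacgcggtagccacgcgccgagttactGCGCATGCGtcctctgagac
Mrpl22, chr11:58171600-58171669, plus strand: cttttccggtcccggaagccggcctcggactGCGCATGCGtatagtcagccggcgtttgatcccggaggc
Mrpl32, chr13:14613110-14613130, minus strand: acccttGCGCATGCGCaagag
Mrpl39, chr16:84735355-84735375, minus strand: agaggcGCGCATGCGCccccg
Mrpl9, chr3:94443269-94443338, plus strand: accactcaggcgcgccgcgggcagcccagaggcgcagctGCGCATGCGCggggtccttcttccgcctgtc
Mrps18b, chr17:35916650-35916670, minus strand: gcccgaCGCATGCGCactggg
Mrpl42, chr10:95501908-95501928, minus strand: tgaagcAAGATGGCGagcgcg
Mrps11, chr7:78783017-78783037, plus strand: gggcgcCGCCATCTTtctgtc
Mrps18a, chr17:46111009-46111029, plus strand: cgttccAAGATGGCGgccctc
Mrps24, chr11:5707652-5707672, minus strand: ccggcccAAGATGGCGtggtc
Mrps27, chr13:99344794-99344814, plus strand: cgctccAAGATGGCGgctccc

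Summed over the 78 genes, the mitoribosomal transcripts took 0.931% and 0.765% of the autosomal FPKM at 22 °C, 0.718% and 1.03% at 4 °C, 0.714% and 0.607% on CD and 0.587% and 0.616% on HFD (replicates in the order given above). The 22 °C values lay inside the 4 °C range, and the HFD values lay around the lower CD value. On the mRNA scale the 22 °C libraries had shares of 0.994% and 1.15%, and the others 1.14% and 1.08% at 4 °C, 1.24% and 0.931% on CD and 0.874% and 1.08% on HFD. On this scale the satellite-low library had the higher share in each of the 4 groups. Also on the mRNA scale, 42 of the 78 genes were higher in the satellite-low library of all 4 groups and 0 were lower in all 4. No share over all genes stands beside this count. The median log2 difference on this scale between the satellite-low and the satellite-high library of a group was 0.20 at 22 °C, 0.07 at 4 °C, 0.44 on CD and 0.31 on HFD. Of all autosomal FPKM, by contrast, the satellite-high library had the higher share at 22 °C and at 4 °C.

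**Figure D2:**
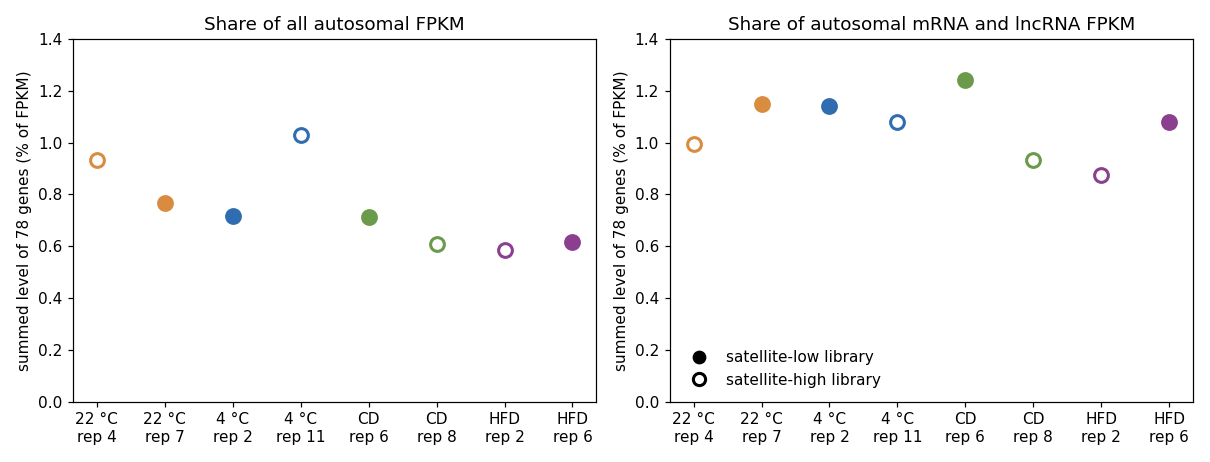
Summed level of the 78 genes in each library as a percentage of all autosomal FPKM (left) and of autosomal mRNA and lncRNA FPKM (right), with filled circles for satellite-low and open circles for satellite-high libraries. On the right the filled circle is above the open one in every group.

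Mrpl12 carried the strongest difference of this kind. On the mRNA scale it was at 17.1 and 33.8 FPKM at 22 °C, 62.5 and 29.7 at 4 °C, 58.4 and 12.4 on CD and 10.5 and 59.1 on HFD. In each group the satellite-low library was the higher one, by 0.95 to 2.39 on the log2 scale. The Mrpl12 gene (chr11:120484613-120489065, plus strand) overlaps the antisense gene Gm16755, and it was not stated whether the authors counted reads by strand. Mrps27, a pentatricopeptide repeat protein of the small subunit, showed the next largest mean difference, at 0.85. Mrps18b, Mrpl10 and Mrpl9 had the most negative mean differences (-0.62, -0.37 and -0.31) and were lower in the satellite-low library in every group other than 22 °C. The part of library type in the group comparisons is given below as values within each library type.

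The cold comparison asked which mitoribosomal transcripts respond to 24 h of cold. No mitoribosomal gene passed the test. For 15 of the 78 the lower of the 4 °C values exceeded the higher of the 22 °C values, and for 3 the order was the opposite. With limma on log2(rescaled FPKM + 1), 0 of the 78 genes had an adjusted p under 0.05 and 0 had an unadjusted p under 0.05, whereas 4.58% of the 18081 genes tested passed the first threshold and 14% the second. With medians centred in place of equal sums, limma called 5 of the 78 higher (all genes 8.71%), with the protein-coding sum 1 (all genes 6.93%), and with library type as a covariate 0 (all genes 5.34%). A p that misses the threshold does not show that levels were the same. The 15 higher genes (19.2% of the 78) stood against 12.5% of all genes tested and the 3 lower ones against 28.2%. On the mRNA scale the numbers were 22 higher and 16 lower, against 18.3% and 45% of all genes, and 11 of the higher and all 3 of the lower genes were shared with the first scale. On that scale 0 of 78 genes had an adjusted p under 0.05 (all genes 6.87%) and 13 an unadjusted p under 0.05 (all genes 31.3%). The median log2 difference over the 78 genes was -0.01, compared with -0.15 over the 10947 tested genes that averaged at least 1 rescaled FPKM. In total, 36 genes had a positive and 42 a negative difference, between -0.76 (Mrpl9) and 0.87 (Mrpl20). With FPKM as deposited 70 were positive and 8 negative, and with medians centred 54 and 24. Leaving out 1 library moved the median between -0.30 (without 4 °C replicate 11) and 0.26 (without 4 °C replicate 2). Within library types the median changed sign, at 0.12 between the satellite-high and -0.12 between the satellite-low libraries, and 28 genes were above 0 in both pairs compared with 23 below 0 in both. In bulk tissue, fewer cells of a type and less RNA per cell cannot be told apart.

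**Figure D3:**
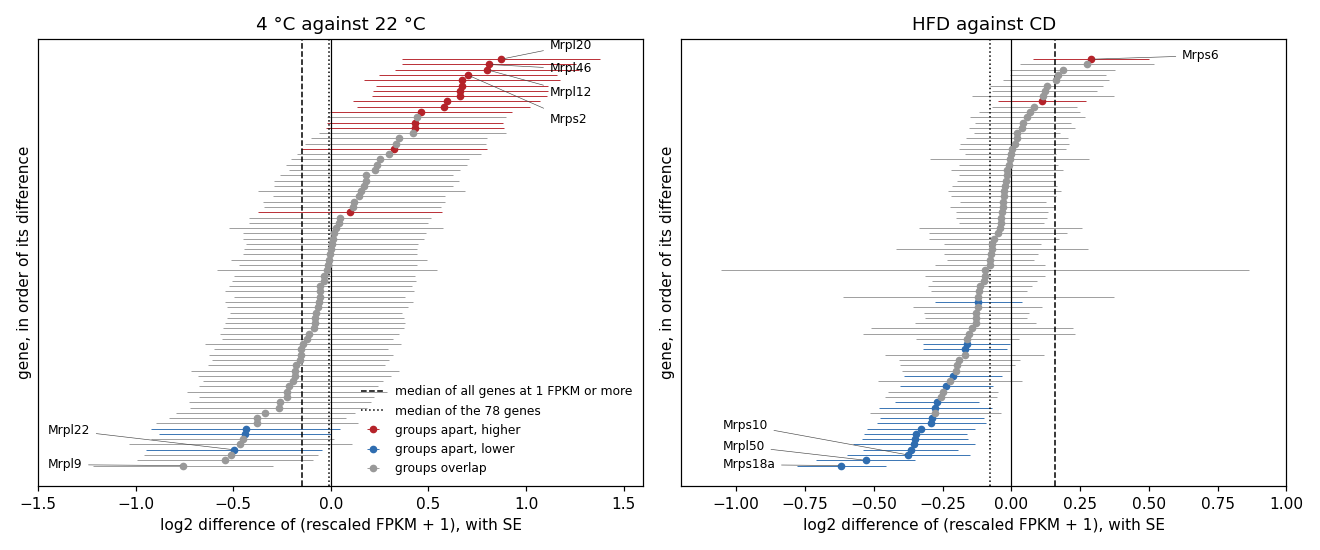
Log2 difference of each of the 78 genes with its limma standard error for 4 °C against 22 °C (left) and HFD against CD (right), ordered by size. Red and blue points are genes whose groups did not overlap (15 higher and 3 lower in the cold, 2 higher and 17 lower on HFD), and the dashed line marks the median of all genes at 1 FPKM or more, on opposite sides of the 78-gene median (dotted) in the 2 comparisons.

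The 8 largest positive differences with non-overlapping groups in the cold included members of both subunits, and the adjusted p did not pass 0.05 for any of them in limma. Mrpl20, a large-subunit protein with a bacterial counterpart (chr4:155802878-155809975), was at 54.7 and 56.5 rescaled FPKM at 22 °C and at 89.8 and 117.2 at 4 °C. Both 4 °C libraries were above every other library, and the 4 remaining CD and HFD libraries, at 54.2 to 64.5, resembled those at 22 °C. Its mean was 55.6 ± 1.24 (SD, n = 2) at 22 °C and 103.5 ± 19.4 at 4 °C, a log2 difference of 0.87 (SE 0.51, limma adjusted p = 0.466). With medians centred the adjusted limma p was 0.0308, and over all alternatives it ran from 0.0308 to 1.

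Mrpl46, a mitochondria-specific large-subunit protein (chr7:78775236-78783531), was at 13.8 and 12.3 rescaled FPKM at 22 °C and at 18.4 and 30.2 at 4 °C. The groups did not overlap, and the 2 libraries at 4 °C differed more from each other than those at 22 °C. Its log2 difference was 0.81 (SE 0.45, limma adjusted p = 0.421), and the adjusted limma p ran from 0.0177 with medians centred to 1 over the alternatives. Mrpl46 overlaps its neighbour Mrps11, a small-subunit gene on the opposite strand, by 413 bases. Mrps11 was at 12.9 and 11.9 rescaled FPKM at 22 °C and at 16.6 and 21.7 at 4 °C, again without overlap of the groups (log2 difference 0.58, SE 0.44). Reads from the shared bases cannot be told apart if strand was not used. Mrpl47, which corresponds to bacterial protein L29 at the tunnel exit, was at 16.5 and 13.1 rescaled FPKM at 22 °C and at 19.7 and 28.7 at 4 °C (log2 difference 0.66, SE 0.45). Its groups did not overlap on either scale, and the adjusted limma p ran from 0.0267 with medians centred to 1, with 0.578 as the reported value. It overlaps the genes Actl6a and Ndufb5 on the opposite strand.

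Of the small subunit, Mrps2, the counterpart of bacterial protein S2, was at 20 and 18.6 rescaled FPKM at 22 °C and at 24.4 and 41.8 at 4 °C. Both 4 °C values were above those of all other libraries, the highest of which was 20. Its log2 difference was 0.70 (SE 0.46), with an adjusted limma p of 0.547 that ran from 0.0379 (medians centred) to 1. Mrps23 was at 49.9 and 53.1 rescaled FPKM at 22 °C and at 76.3 and 89.4 at 4 °C (log2 difference 0.67, SE 0.50). Mrps22 was at 15.4 and 16.7 rescaled FPKM at 22 °C and at 21.8 and 31.0 at 4 °C (log2 difference 0.66, SE 0.45). Both are mitochondria-specific proteins, and their groups did not overlap on either scale. Mrps27 was at 8.48 and 10.2 rescaled FPKM at 22 °C and at 16.8 and 14.2 at 4 °C (log2 difference 0.67, SE 0.44). Mrpl12 was at 23.6 and 33.2 rescaled FPKM at 22 °C and at 58.3 and 42.1 at 4 °C (log2 difference 0.80, SE 0.47). For these last genes the groups overlapped on the mRNA scale.

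The sign of the difference within each library type is fixed by the choice of genes whose groups did not overlap, and its size is given as a description. It was larger between the satellite-high than between the satellite-low libraries for each of the 8, though by little for Mrps27 and Mrpl12. The values, in that order, were 1.02 and 0.38 for Mrps2, 0.96 and 0.36 for Mrps22 and 1.07 and 0.55 for Mrpl46. They were 0.83 and 0.52 for Mrps23, 1.08 and 0.66 for Mrpl20 and 0.76 and 0.56 for Mrpl47. They were 0.68 and 0.66 for Mrps27 and 0.81 and 0.79 for Mrpl12. The pooled difference depended on 4 °C replicate 11 for several of these genes. Without that library it was 0.33 for Mrps2, 0.40 for Mrpl47, 0.42 for Mrps22 and 0.47 for Mrpl46.

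Only 3 genes were lower without overlap in the cold, and the same 3 were lower on the mRNA scale. Mrpl22, whose product lines the peptide exit tunnel, was at 26.3 and 23 rescaled FPKM at 22 °C and at 13.1 and 22.4 at 4 °C (log2 difference -0.50, SE 0.45). The 4 °C libraries were further apart than the means of the groups, and the difference was -0.22 between the satellite-high and -0.77 between the satellite-low libraries. It was -0.13 without 4 °C replicate 2 and -0.86 without 4 °C replicate 11. Mrps24 was at 62.1 and 49.2 rescaled FPKM at 22 °C and at 34.4 and 47.9 at 4 °C (log2 difference -0.44, SE 0.48), and the difference was -0.20 without 4 °C replicate 2, -0.27 without 22 °C replicate 4 and -0.67 without 4 °C replicate 11. Mrps6, the counterpart of bacterial protein S6, was at 14.9 and 11.8 rescaled FPKM at 22 °C and at 9.42 and 9.63 at 4 °C (log2 difference -0.44, SE 0.44), and the difference was -0.28 without 22 °C replicate 4. Mrps24 overlaps Urgcp and Mrps6 overlaps Slc5a3 on the same strand, so that part of their reads may belong to the neighbour. The most negative difference of all, that of Mrpl9, came from overlapping groups at 38.2 and 33.7 rescaled FPKM at 22 °C and 12.3 and 34.8 at 4 °C. Its groups did not overlap on the mRNA scale, where the difference was -0.74.

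**Figure D4:**
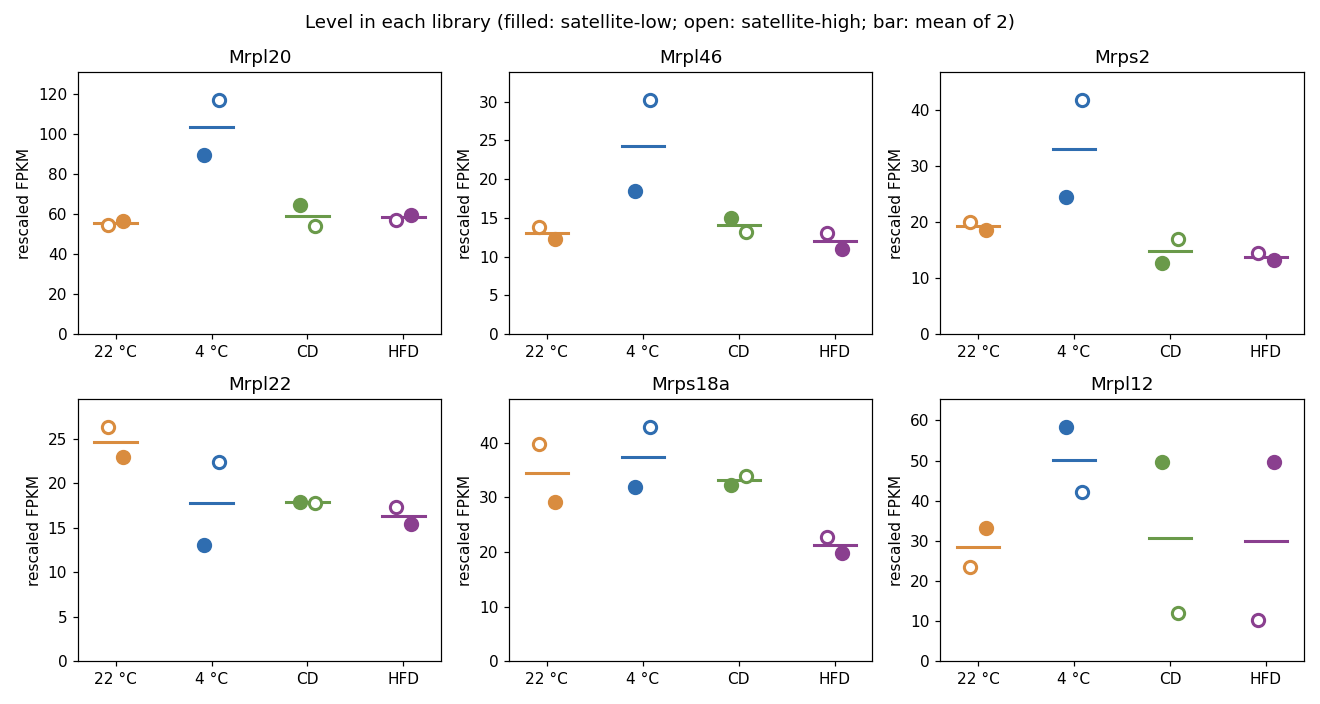
Rescaled FPKM of 6 genes in each library, with filled circles for satellite-low libraries, open circles for satellite-high libraries and bars for the mean of the 2 libraries. Mrpl20, Mrpl46 and Mrps2 were highest at 4 °C, Mrps18a was lowest on HFD, and Mrpl12 followed library type on CD and HFD.

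The other members chosen by role differed by -0.38 (Mrps36) to 0.44 (Mrpl58), in most cases with overlapping groups. Differences at 4 °C were -0.34 for Mrpl10, -0.08 for Mrpl11, -0.08 for Mrps12, 0.18 for Mrpl44 and -0.01 for Mrpl45 on the log2 scale, with SE of 0.44 to 0.46. On this scale the groups of all 5 overlapped, and on the mRNA scale Mrpl44 was higher at 4 °C without overlap. Mrpl58 was at 26.4 and 23 rescaled FPKM at 22 °C and at 25.5 and 44.6 at 4 °C (0.44, SE 0.46), with overlapping groups on this scale and separate groups on the mRNA scale. The S18 paralogues differed by 0.12 (Mrps18a), 0.04 (Mrps18b) and -0.19 (Mrps18c), and Mrps30 by less than 0.01. On the mRNA scale Mrps18a was higher at 4 °C without overlap (0.14). Mrps36 differed by -0.38, with overlapping groups that were separate on the mRNA scale. By subunit, 8 of 51 large-subunit (15.7%) and 7 of 26 small-subunit genes (26.9%) were higher without overlap, beside 12.5% of all genes, and 1 and 2 were lower (1.96% and 7.69%, beside 28.2%). Among mitochondria-specific genes 8 of 31 were higher (25.8%) and 0 lower, and among those with a bacterial counterpart 6 of 44 were higher (13.6%) and 3 lower (6.82%). These counts depended on the scale. With the mRNA scale 16 large-subunit (31.4%) and 6 small-subunit genes (23.1%) were higher and 9 and 6 lower (17.6% and 23.1%), beside 18.3% and 45% of all genes, so that the order of the subunits turned. Likewise 11 mitochondria-specific genes (35.5%) and 10 with a bacterial counterpart (22.7%) were higher, and 5 and 10 lower (16.1% and 22.7%). Medians on the rescaled FPKM scale were 0.04 for mitochondria-specific genes and -0.06 for those with a bacterial counterpart, and the difference between the classes was not tested.

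Of the 7 genes with the NRF-1 string, 6 had a negative log2 difference in the cold, with a median of -0.34 and a range of -0.76 to 0.04. The 62 other genes with a promoter window had a median of 0.00, and 31 of them were negative. Among the 7, 1 was lower without overlap on the rescaled FPKM scale (Mrpl22), beside 2 of the 62 others and 28.2% of all genes. The mRNA scale gave 4 of the 7 and 11 of the 62, beside 45% of all genes. Mrps18b, Mrpl10, Mrpl9 and Mrpl39, which are 4 of these 7, were also among the 5 genes with the most negative difference between satellite-low and satellite-high libraries on the mRNA scale. This grouping was made after the values had been seen, and the part of library type in it was not tested.

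Markers of another tissue moved with the cold comparison. Skeletal muscle markers were higher without overlap for 11 of 11 genes (all genes 12.5%), and limma called all 11 (adjusted p = 1.90e-07 to 0.000453, all genes 4.58%). With the mRNA scale all 11 were again higher without overlap (all genes 18.3%). There limma called 0 of the 11, with adjusted p = 0.0614 to 0.13 (all genes 6.87%). With library type as a covariate it called 2 (all genes 5.34%). Their summed level was 857.8 and 124.5 rescaled FPKM at 22 °C and 3031 and 2512 at 4 °C, and no marker was at 0. Among the brown adipocyte markers, Dio2, Ppargc1a and Elovl3 rose (limma adjusted p = 3.15e-05, 1.05e-05 and 5.71e-13), whereas Adipoq (1142 and 566.0 rescaled FPKM at 22 °C, 289.3 and 409.3 at 4 °C) and Prdm16 (7.23 and 9.24 at 22 °C, 2.29 and 5.05 at 4 °C) were lower without overlap. In all, 4 of the 10 markers were higher (40%, against 12.5% of all genes) and 2 lower (20%, against 28.2%) without overlap. On the mRNA scale 6 were higher (60%, against 18.3%) and 4 lower (40%, against 45%). The summed level of the 10 markers went from 9837 and 7303 to 12015 and 19133 rescaled FPKM. Ucp1 was at 1113 and 1643 at 22 °C and at 4733 and 7284 at 4 °C (limma adjusted p = 0.341). Muscle also expresses mitoribosomal genes, and its part in their cold differences was not tested.

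The diet comparison asked whether mitoribosomal transcripts differ in BAT after 28 weeks of HFD. No mitoribosomal gene passed the test, 17 of the 78 were lower in both HFD libraries than in both CD libraries, and 2 were higher in both. With limma, 0 of the 78 genes had an adjusted p under 0.05, as had 0% of the 17432 genes tested, and 2 had an unadjusted p under 0.05 (all genes 13.3%). The 17 lower genes (21.8% of the 78) stood against 10.8% of all genes tested and the 2 higher ones against 32.8%. The share of lower genes was near or below that of all genes with 2 other scalings. These were FPKM as deposited (2 of 78, all genes 5.8%) and medians centred (31 of 78, all genes 38.1%). On the mRNA scale, 12 genes were lower (all genes 10.6%) and 1 was higher (all genes 32.9%), and 11 of the lower genes were shared between the scales. With limma on that scale, 0 of 78 had an adjusted p under 0.05 (all genes 0%) and 2 an unadjusted p under 0.05 (all genes 13.2%). The median log2 difference over the 78 genes was -0.08, compared with 0.16 over the 10935 tested genes that averaged at least 1 rescaled FPKM. In total, 60 genes had a negative and 18 a positive difference, between -0.62 (Mrps18a) and 0.29 (Mrps6). With FPKM as deposited the direction turned, with 27 negative and 51 positive differences and a median of 0.06, and with medians centred 76 were negative and 2 positive, with a median of -0.30. With library type as a covariate limma also called 0 of the 78 (all genes 2.28%), and on the mRNA scale with this covariate 1, Mrps18a (all genes 4.25%). These values rested in part on CD replicate 6, the library whose name differs in form from those of the others in this comparison. Among the other 3 libraries the 78-gene median was 0.03 and lay 0.04 below that of all genes, with 29 genes higher (all genes 40.7%) and 24 lower (all genes 33.7%) in both HFD libraries than in CD replicate 8. CD replicate 6 has no HFD library of its form beside it, so that no second value within a form could be had. Without CD replicate 8 the median was -0.18 and lay 0.44 below that of all genes. Within library types, the median was -0.03 in the satellite-high pair and -0.19 in the satellite-low pair, and 38 genes were below 0 in both pairs compared with 7 above 0 in both.

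Mrps18a, a large-subunit paralogue of the S18 family (chr17:46110986-46128910), had the most negative difference. It was at 32.3 and 33.9 rescaled FPKM on CD and at 22.7 and 19.8 on HFD. The 2 HFD libraries were the lowest of all 8, the next being 29.1 at 22 °C. Means were 33.1 ± 1.09 (SD, n = 2) and 21.3 ± 2.05, a log2 difference of -0.62 (SE 0.16, limma adjusted p = 0.258). On the mRNA scale with library type as a covariate the adjusted limma p was 0.048, and it ran from 0.048 to 1 over the alternatives. Its sign in any pair of libraries is fixed by the choice of genes without overlap. Leaving out 1 library moved the difference between -0.71 and -0.52. Its paralogues Mrps18b (-0.12) and Mrps18c (-0.25) had overlapping groups, as they also had in the cold. Mrps18a overlaps Rsph9 on the opposite strand.

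Mrpl50, a mitochondria-specific large-subunit protein, was at 11.2 and 13.3 rescaled FPKM on CD and at 8.74 and 7.6 on HFD (log2 difference -0.53, SE 0.18, limma adjusted p = 0.333). Both CD libraries were above all others, the next being 11 at 4 °C. Mrps10, which corresponds to bacterial protein S10, was at 10.5 and 11.4 rescaled FPKM on CD and at 9.95 and 6.78 on HFD (log2 difference -0.37, SE 0.23), and the difference was -0.62 without HFD replicate 2 and -0.13 without HFD replicate 6. Mrpl34, a small basic protein of the large subunit, was at 73.2 and 61.7 rescaled FPKM on CD and at 50.7 and 53.2 on HFD (log2 difference -0.37, SE 0.17). For these 3 genes the groups did not overlap on either scale. Mrps36 was at 67.9 and 87.8 rescaled FPKM on CD and at 67.6 and 53.6 on HFD (log2 difference -0.35, SE 0.22), so that the nearest libraries of the groups all but met. The difference was -0.54 without CD replicate 6, -0.52 without HFD replicate 2, -0.17 without CD replicate 8 and -0.19 without HFD replicate 6.

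The most abundant members were among those lower on HFD. Mrpl30 was at 129.5 and 107.1 rescaled FPKM on CD and at 85.8 and 98.9 on HFD (log2 difference -0.35, SE 0.19). Mrps21 was at 130.6 and 104.5 rescaled FPKM on CD and at 87.9 and 98 on HFD (log2 difference -0.33, SE 0.20). Mrpl32, which is known to be matured by the AFG3L2 protease before it joins the ribosome, was at 26.3 and 21.2 rescaled FPKM on CD and at 17.2 and 19.6 on HFD (log2 difference -0.35, SE 0.19). Without CD replicate 6 the differences of Mrpl30, Mrps21 and Mrpl32 were -0.21, -0.17 and -0.20. On the mRNA scale the groups of these 3 genes overlapped, since the satellite-low HFD library was above the satellite-high CD library. Of the 5 most abundant members, Mrpl42 and Mrpl34 were lower without overlap on both scales and Mrpl51 had overlapping groups on both. In the 2 genes that were higher without overlap the differences were small. Mrps6 was at 14.0 and 10 rescaled FPKM on CD and at 14.2 and 15.3 on HFD (log2 difference 0.29, SE 0.21, and 0.07 without CD replicate 8 but 0.51 without CD replicate 6), and Mrpl49 at 11.8 and 10.5 on CD and at 12 and 12.2 on HFD (0.11, SE 0.16, and 0.03 and 0.19 without the same libraries). Both overlapped on the mRNA scale, and Mrpl49 was negative with medians centred and with quantile normalization.

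By subunit, 13 of 51 large-subunit (25.5%) and 3 of 26 small-subunit genes (11.5%) were lower on HFD without overlap, besides Mrps36, and 1 of each was higher (1.96% and 3.85%). Over all genes 10.8% were lower and 32.8% higher. Among genes with a bacterial counterpart 11 of 44 were lower (25%) and 1 higher (2.27%), with a median of -0.11. Among mitochondria-specific genes 5 of 31 were lower (16.1%) and 1 higher (3.23%), with a median of -0.03. This order of the classes turned with the mRNA scale, where 5 genes with a bacterial counterpart (11.4%) and 6 mitochondria-specific genes (19.4%) were lower, beside 10.6% of all genes. There 10 large-subunit genes (19.6%) and 1 small-subunit gene (3.85%) were lower. Of the genes chosen by role, Mrpl47 was lower without overlap (15.6 and 15.3 rescaled FPKM on CD, 14.1 and 13.3 on HFD, log2 difference -0.17, SE 0.15). Mrpl10, Mrpl11, Mrps12, Mrpl44, Mrpl45, Mrpl58, Mrps24, Mrps30 and Mrpl12 had overlapping groups, with differences of -0.20 (Mrpl11) to 0.12 (Mrpl44). Mrpl12 had by far the largest standard error, 0.96 on the log2 scale, as it was at 49.6 and 12 rescaled FPKM on CD and at 10.4 and 49.6 on HFD. All 7 genes with the NRF-1 string had a negative difference, with a median of -0.17, compared with 48 of the 62 others and a median of -0.08.

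Markers of other cell types moved with the diet as well. Macrophage markers were higher on HFD without overlap for 8 of 8 genes (all genes 32.8%), with a summed level of 96.4 and 57.7 rescaled FPKM on CD and 252.9 and 210.9 on HFD. Skeletal muscle markers were lower without overlap for 9 of 11 genes (81.8%, against 10.8% of all genes), with sums of 431.3 and 1780 on CD and 184.2 and 11.3 on HFD. No macrophage or muscle marker was at 0 in both libraries of a group. Of the brown adipocyte markers, 4 of 10 were lower (40%, against 10.8% of all genes) and 2 higher (20%, against 32.8%) without overlap, with a median log2 difference of 0.04. On the mRNA scale 3 were lower and 2 higher. There 10 of 11 muscle markers were lower and 8 of 8 macrophage markers higher (all genes 10.6% lower and 32.9% higher). Elovl3 was at 181.5 and 146.4 rescaled FPKM on CD and at 18.8 and 13.3 on HFD, and Cidea at 864.3 and 941.1 on CD and at 483.2 and 306.7 on HFD. Dio2 (9.86 and 6.03 on CD, 18.1 and 10.1 on HFD) and Plin1 (318.0 and 335.1 on CD, 400.2 and 402.6 on HFD) were the 2 higher ones. Limma called 0 of the 10 brown, 11 muscle and 8 macrophage markers (adjusted p = 0.18 to 0.981, all genes 0%), with 2, 7 and 7 of them at an unadjusted p under 0.05 (all genes 13.3%). With library type as a covariate it called 1 brown, 9 muscle and 2 macrophage markers (all genes 2.28%). The part of these cells in the mitoribosomal differences was not tested.

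Other gene groups were measured in the same libraries. Nduf genes, most of which encode nuclear subunits of complex I of the respiratory chain, were lower on HFD without overlap for 19 of 34 genes (55.9%, against 10.8% of all genes) and higher for 0, with a median log2 difference of -0.28. In the cold, 2 of the 34 were higher (5.88%, against 12.5%) and 1 lower (2.94%, against 28.2%), with a median of -0.06. The mRNA scale gave 14 lower on HFD (41.2%, against 10.6%), and 3 higher and 8 lower in the cold (8.82% and 23.5%, against 18.3% and 45%). With FPKM as deposited 2 of the 34 Nduf genes were lower on HFD (all genes 5.8%) and 25 were higher in the cold (all genes 37.9%). With medians centred 24 were lower on HFD (70.6%, against 38.1%). Of 67 cytosolic ribosomal protein genes tested, 34 were higher on HFD without overlap (50.7%, against 32.8% of all genes) and 1 was lower (1.49%, against 10.8%). Their median was 0.33, beside 0.16 over all genes. In the cold 2 were higher (2.99%, against 12.5%) and 5 lower (7.46%, against 28.2%), with a median of -0.19 beside -0.15 over all genes. The share higher on HFD depended on the scale, since the mRNA scale gave 18 of 67 (26.9%, against 32.9% of all genes) and centred medians 5 (7.46%, against 12.6%). The 5 lower in the cold became 27 (40.3%, against 45%) and the 2 higher became 8 (11.9%, against 18.3%) with the mRNA scale. Limma called 1 of them in the cold (all genes 4.58%), Rpl3l, a paralogue known from striated muscle (log2 difference 2.47, adjusted p = 4.24e-06). On the mRNA scale limma called 0 of the 67 (lowest adjusted p = 0.0528, all genes 6.87%), and with FPKM as deposited and quantile normalization also 0. With medians centred and with library type as a covariate it called 1 (all genes 8.71% and 5.34%). The medians of the 78 mitoribosomal genes (-0.01 in the cold and -0.08 on HFD) lay between that of the Nduf genes and that of the cytosolic ribosome on HFD and above both in the cold. These 2 groups were added after the values had been seen, and their differences from the mitoribosomal genes were not tested.

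Of 5 further mitoribosomal proteins without an Mrp symbol in the table, Ptcd3 was higher (20%, against 12.5% of all genes) and Chchd1 lower (20%, against 28.2%) in the cold without overlap. On HFD Ptcd3 and Dap3 were lower (40%, against 10.8%). With the mRNA scale 3 of the 5 were higher (60%, against 18.3%) and 1 lower (20%, against 45%) in the cold. On HFD 0 were separate on that scale (all genes 32.9% higher and 10.6% lower). Ptcd3, a pentatricopeptide repeat protein of the small subunit, was at 39.4 and 33.9 rescaled FPKM at 22 °C, 45.6 and 55.4 at 4 °C, 44.4 and 37.1 on CD and 30.3 and 33.7 on HFD. Of 24 factors for mitoribosome assembly and rRNA modification, 3 were higher (12.5%, as over all genes) and 4 lower (16.7%, against 28.2%) in the cold. On HFD 7 were higher (29.2%, against 32.8%) and 5 lower (20.8%, against 10.8%). The mRNA scale gave 6 higher and 9 lower in the cold (25% and 37.5%, against 18.3% and 45%) and 4 higher and 2 lower on HFD (16.7% and 8.33%, against 32.9% and 10.6%). Among them Mpv17l2 was at 14.2 and 15.0 rescaled FPKM at 22 °C, 20.6 and 36.6 at 4 °C, 9.66 and 10.5 on CD and 15.1 and 15.0 on HFD, and its groups were separate, with higher values, in both comparisons. Rbfa, a factor for small-subunit maturation, was lower in the cold (16.9 and 14.0 at 22 °C, 5.45 and 10.4 at 4 °C). Of 15 translation factors, 4 were higher (26.7%, against 12.5% of all genes) and 1 was lower (6.67%, against 28.2%) in the cold. They included Gfm1, the elongation factor for translocation (38.0 and 32.3 at 22 °C, 47.0 and 92.8 at 4 °C), and Taco1, an activator of cytochrome c oxidase translation (12.9 and 13.4 at 22 °C, 25.4 and 27.4 at 4 °C). On HFD 0 were higher and 3 lower (20%, against 10.8%). The mRNA scale gave 4 higher and 3 lower in the cold (26.7% and 20%, against 18.3% and 45%), and 1 higher and 6 lower on HFD (6.67% and 40%, against 32.9% and 10.6%). Of 10 genes for transcription and replication of mitochondrial DNA, 4 were higher (40%, against 12.5%) and 0 lower in the cold, among them the elongation factor Tefm (7.98 and 8.13 at 22 °C, 14.4 and 16.1 at 4 °C) and the RNA polymerase Polrmt (13.5 and 11.1 at 22 °C, 17.0 and 24.7 at 4 °C). On HFD 1 was higher (10%, against 32.8%) and 0 lower (against 10.8%). With the mRNA scale 4 were higher and 2 lower in the cold (40% and 20%, against 18.3% and 45%). On HFD that scale gave 1 higher and 2 lower (10% and 20%, against 32.9% and 10.6%). Limma called 0 of the 54 genes of these lists in either comparison (all genes 4.58% in the cold and 0% on HFD). An unadjusted p under 0.05 was found for 2 in the cold (all genes 14%) and 1 on HFD (all genes 13.3%). With medians centred it called 2 assembly factors (1 higher and 1 lower), 2 translation factors and 4 genes of mitochondrial DNA transcription and replication in the cold, where it called 8.71% of all genes. With library type as a covariate it called 1 translation factor, and 5.34% of all genes. The mitochondrial ribosomal RNAs could not be set beside these genes, since mt-Rnr2 was listed at 0 in 3 libraries and mt-Rnr1 in 1.

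Mrpl23 lies 34781 bases from H19, the imprinted lncRNA that the study followed, on chromosome 7 (chr7:142532686-142540747). It was at 28.8 and 18.9 rescaled FPKM at 22 °C, 16.5 and 25.5 at 4 °C, 21 and 16.5 on CD and 19.8 and 19.2 on HFD. Its groups overlapped in both comparisons, with log2 differences of -0.18 (SE 0.45) and 0.07 (SE 0.19).

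The difference between the 78-gene median and that of all genes at 1 rescaled FPKM or more was 0.14 in the cold and -0.23 on HFD. A factor applied to a whole library shifts both medians in the same direction, so that agreement of this difference between such scalings is no sign of stability. With FPKM as deposited it was 0.21 and -0.22. Quantile normalization, which is not of that kind, gave 0.02 in the cold and -0.15 on HFD. The 78-gene median itself ran from -0.03 with quantile normalization to 0.41 with FPKM as deposited in the cold. Leaving out 1 library, the cold difference from all genes ran from 0.08 (without 4 °C replicate 11) to 0.16 (without 4 °C replicate 2).

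**Figure D5:**
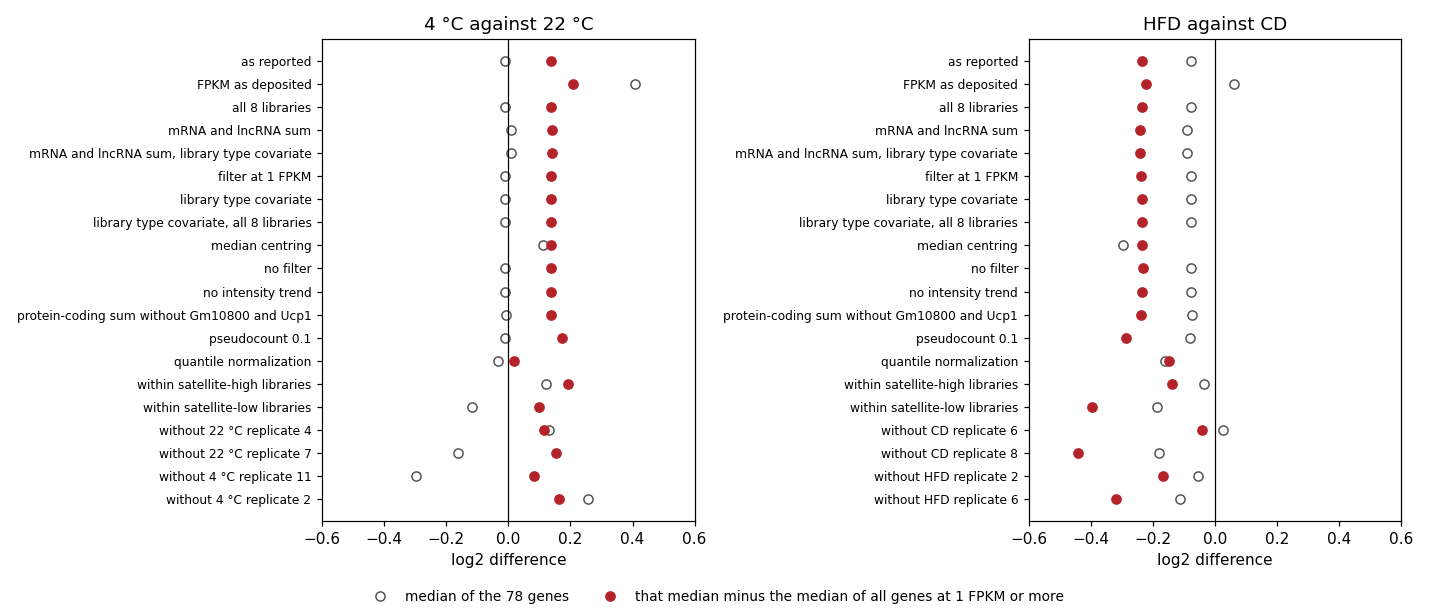
Median log2 difference of the 78 genes (open circles) and that median minus the median of all genes at 1 FPKM or more (filled circles) under each way of scaling, filtering and leaving out libraries, for 4 °C against 22 °C (left) and HFD against CD (right). The filled circles are nearest to 0 with quantile normalization in the cold (0.02) and without CD replicate 6 on HFD (-0.04), and FPKM as deposited gave 0.21 and -0.22.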

How the data were processed

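RNA-Seq was performed by the authors on BAT from 8 mice (n = 2 per group). Per the methods, reads were mapped to GRCm38 with TopHat2 and assembled with Cufflinks. The submitters' processing notes give TopHat2 2.0.10 and Cufflinks 2.2.1, and the methods name another Cufflinks version. The deposited values are FPKM, calculated by the authors for single libraries without pooling. No counts were used here. Genes were matched to GENCODE M21 (49109 of 49452) for type and position. FPKM values were rescaled to equal autosomal sums and tested as log2(FPKM + 1) with limma 3.58.1 (R 4.3.3, lmFit, eBayes with trend, two-sided), using the 4 libraries of each comparison, no covariate, and keeping genes that reached 0.1 FPKM in 2 or more of the 4. Adjusted p-values follow Benjamini and Hochberg and cover every gene tested. In the cold, the limma standard error followed the level of a gene rather than its own spread. It was 0.44 for Fastkd2 (7.46 and 7.13 rescaled FPKM at 22 °C, 9.42 and 10.4 at 4 °C). For Tfb2m (9.36 and 8.47 at 22 °C, 2.97 and 11.7 at 4 °C) it was 0.44 as well. Cold p-values therefore do not measure the spread between the libraries of a single gene. Because 1 is added, fold changes of low genes are understated. Groups were called non-overlapping when both libraries of one lay above both of the other.

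Named genes were the 5 highest and 5 lowest by mean, up to 8 rises and 8 falls per comparison with non-overlapping groups, and 14 chosen by role. Mrps11, Mrpl9, Mrpl17, Mrpl23, Mrpl39 and the genes outside the 78 were picked after their values were seen, as were the cytosolic ribosomal and Nduf groups and Rpl3l, which stand in no list of the design. Members and lists were chosen with earlier results of these data known. Without overlap, 0 of 7 lymphoid, 0 of 2 erythroid, 0 of 8 endothelial and 3 of 5 white adipocyte markers were higher in the cold (all genes 12.5%), and 6, 0, 2 and 1 lower (28.2%). Limma called Nnmt higher (adjusted p = 0.00289) and Lep lower (adjusted p = 4.42e-07) among them. On HFD 2 of 6, 2 of 3, 5 of 8 and 3 of 5 were higher (32.8%), and 1, 0, 0 and 0 lower (10.8%), with 0 called and 0, 2, 1 and 3 at an unadjusted p under 0.05. With library type as a covariate limma called 1 erythroid and 2 white adipocyte markers on HFD (all genes 2.28%). Lep was at 2.27 and 0.38 rescaled FPKM on CD and at 64.2 and 62.2 on HFD. Depth was read from the step between low values of genes with 1 exon and 600 to 3000 bases, where 97.4% to 98.4% of low values were whole fragments within 0.1. The mRNA scale, other scalings, pseudocounts, filters, covariates and left-out libraries were alternatives.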

Additional observations from a re-analysis of the deposited data

How the results depend on the processing

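No paired analysis was possible because the 22 °C and 4 °C groups share no replicate number and CD and HFD share only 1. The number of called genes in the cold was 0, but 5 with medians centred and 1 when scaled to the protein-coding sum without Gm10800 and Ucp1, and on HFD it was 0, but 1 (Mrps18a) on the mRNA scale with library type as covariate. The 15 cold genes that were higher without overlap became 53 with FPKM as deposited, 37 with medians centred and 24 with the protein-coding sum or quantile normalization, while the share of all genes that were higher went from 12.5% to 37.9%, 22.4%, 18.1% and 25.8%. The 3 lower ones became 0, 10, 19 and 23 with these scalings in turn (all genes 28.2%, then 20.6%, 23.4%, 46% and 32.4%), and 16 on the mRNA scale (45%). On HFD, the 2 higher genes became 1 on the mRNA scale and with the protein-coding sum, and 0 with medians centred or quantile normalization (all genes 32.8%, then 32.9%, 33.2%, 12.6% and 21.1%). The 17 lower ones became 2 with FPKM as deposited and 31 with medians centred (all genes 10.8%, then 5.8% and 38.1%). The cold median of -0.01 was 0.41 with FPKM as deposited, and the HFD median of -0.08 was 0.06. Leaving out 1 library, the cold median ran from -0.30 (without 4 °C replicate 11) to 0.26 (without 4 °C replicate 2). The cold counts ran from 15 higher (all genes 14.3%) to 53 (37.3%), and from 3 lower (30% or 30.5%) to 48 (67.9%). On HFD 6 were higher without CD replicate 8 (all genes 66%) and up to 29 without CD replicate 6 (40.7%). The lower ones on HFD ran from 24 without CD replicate 6 (33.7%) to 57 without CD replicate 8 (17.4%). The HFD median relative to all genes ran from -0.44 (without CD replicate 8) to -0.041 (without CD replicate 6). With 1 library left in a group, that library is assumed to vary like the other group's, and separation from it is easier. Of 21 log2 differences of genes named for a change in the 2 comparisons, 1 reversed, that of Mrpl49 on HFD, to -0.11 with medians centred and -0.028 with quantile normalization. This count is no sign of stability. The genes were chosen for groups without overlap, so that leaving out a library cannot reverse them. Filters and covariates left the differences unchanged. With FPKM as deposited, the cold differences of Mrps24 and Mrps6 came to -0.004 and -0.025. The causes of these changes were not tested, apart from the fewer samples when a library is left out. The protein-coding sum, the covariate on the mRNA scale and the relative median were added after the data had been seen. Groups of 2 limit the precision, and the part of the unequal share of RNAs other than mRNA and lncRNA in it was not tested.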
